A study of Gallus gallus with 20 samples.

Results

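The genes described are 9 proteases, peptidases and protease inhibitors of embryonic chicken skin: the matrix metalloproteinases MMP2, MMP16 and MMP9, the tissue inhibitors TIMP2 and TIMP3, the secreted metalloprotease ADAMTS17, the peptidases CPA6 and MME, and the serpin SERPINB2. They were taken by symbol from the array annotation, out of 13009 genes with a symbol of their own, and 20 of the 38439 probe sets on the array belong to them. Where a gene had several probe sets, the brightest one by its average across the 20 arrays stands for it. The genes were chosen by their log2 levels in the 8 groups of these same arrays, and in particular by the differences of CPA6 and SERPINB2 between E9se and E7fe, of MME between E11se and E9se and of ADAMTS17 between E9fm and E7fm. Those 4 differences are given as a description, with no test, and the tests of the others are not independent evidence.

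RNA came from white leghorn embryos, from dorsal skin that forms feathers and metatarsal skin that forms scales, each parted into mesenchyme and epithelium by EDTA before extraction. In the group names s and f stand for scale and feather skin, and m and e for mesenchyme and epithelium. The mesenchyme groups were differentiated scale skin at embryonic day 11 (E11sm, 3 arrays), undifferentiated scale skin at day 9 (E9sm, 2 arrays), differentiated feather skin at day 9 (E9fm, 3 arrays) and undifferentiated feather skin at day 7 (E7fm, 2 arrays). The epithelium groups were E11se (3 arrays), E9se (2 arrays), E9fe (3 arrays) and E7fe (2 arrays), from the same skins. The labels call every sample pooled and the arrays of a group biological replicates, but neither the number of embryos in a pool nor whether epithelium and mesenchyme share embryos is stated. The Methods count 2 arrays per epithelial and 3 per mesenchymal group, and the labels were followed here. Skins of like developmental stage were compared, so the scale skin of each such pair came from older embryos, and region and age cannot be told apart in them. The age-matched pairs at day 9 set undifferentiated scale skin against differentiated feather skin, so region and stage cannot be told apart in those.

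Proteases of the matrix cut collagens and other proteins between cells, and they also release or destroy signals held there. Metalloproteinases are made as inactive precursors, are switched on by other proteases at the cell surface and are blocked by the TIMP proteins. A second system runs through plasmin, which urokinase sets free and serpins hold in check. In skin, both systems are known from remodelling of the dermis and from the growth of buds and follicles.

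Levels are log2 values as deposited, on which 1 unit is a doubling. Differences between groups carry their standard error (SE) and a limma p-value from 1 fit of the 8 groups, adjusted over 38439 probe sets. A difference that passes has an adjusted p under 0.05. The p-values measure the spread between these pooled samples only, and the small number of arrays limits their precision. In bulk RNA of this kind, fewer cells of a type and less RNA per cell cannot be told apart. Levels of different probe sets are not comparable with each other, so each gene is compared only with itself. The array medians lay between 5.62 and 5.69.

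The separation of the compartments can be read from marker genes. The mean of 18 mesenchymal markers lay between 11.66 and 11.96 on the 10 mesenchyme arrays and between 8.20 and 9.94 on the 10 epithelium arrays. The mean of 11 epithelial markers lay between 5.60 and 8.06 in mesenchyme and between 10.13 and 11.09 in epithelium. The highest level of the other compartment's markers fell, in either compartment, on the array labelled E9 feather replicate 1. The array labelled E9fe 1 held the mesenchymal markers at 9.94, against 8.21 and 8.20 on E9fe 2 and 3, and the mesenchymal factor TWIST2 at 9.39, against 3.86 and 3.34. The array labelled E9fm 1 held the epithelial markers at 8.06, against 5.69 and 6.02 on E9fm 2 and 3, and the epithelial cadherin CDH1 at 9.54, against 4.92 and 5.34. Over all probe sets E9fe 1 correlated at 0.978 to 0.988 with E11se, at 0.981 to 0.985 with E9se and at 0.972 to 0.974 with the other E9fe arrays. E9fm 1 correlated at 0.974 to 0.986 with E11sm, at 0.978 to 0.983 with E9sm and at 0.961 to 0.966 with the other E9fm arrays.

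Genes of limb and trunk identity, named after their values were seen, set both arrays with scale skin, against their labels. SP8, a factor of the limb's ectoderm, was at 9.62 to 10.05 in E11se and 9.50 and 10.15 in E9se, at 10.16 on E9fe 1, but at 3.98 and 4.01 on E9fe 2 and 3. TBX4, a hindlimb factor, was at 10.11 to 10.70 in E11sm and 11.16 and 10.17 in E9sm, at 10.39 on E9fm 1, but at 5.29 and 5.35 on E9fm 2 and 3. HOXC9, a trunk patterning gene, was at 5.82 on E9fm 1, against 9.69 and 9.56 on E9fm 2 and 3. In epithelium it did not part the regions, at 9.33 to 10.01 in E11se, 9.28 and 9.25 in E7fe and 9.64 on E9fe 1. Among these genes SP8 alone thus sets E9fe 1 with scale epithelium. Both arrays were kept under their labels, so each E9 feather value with all arrays includes 1 array of 3 whose region is in doubt. Many of the results that rest on them, though not all, are also given without them. A difference between groups that hold neither array keeps its size then. Only its SE and adjusted p change, because all groups share 1 estimate of the spread.

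**Figure D1:**
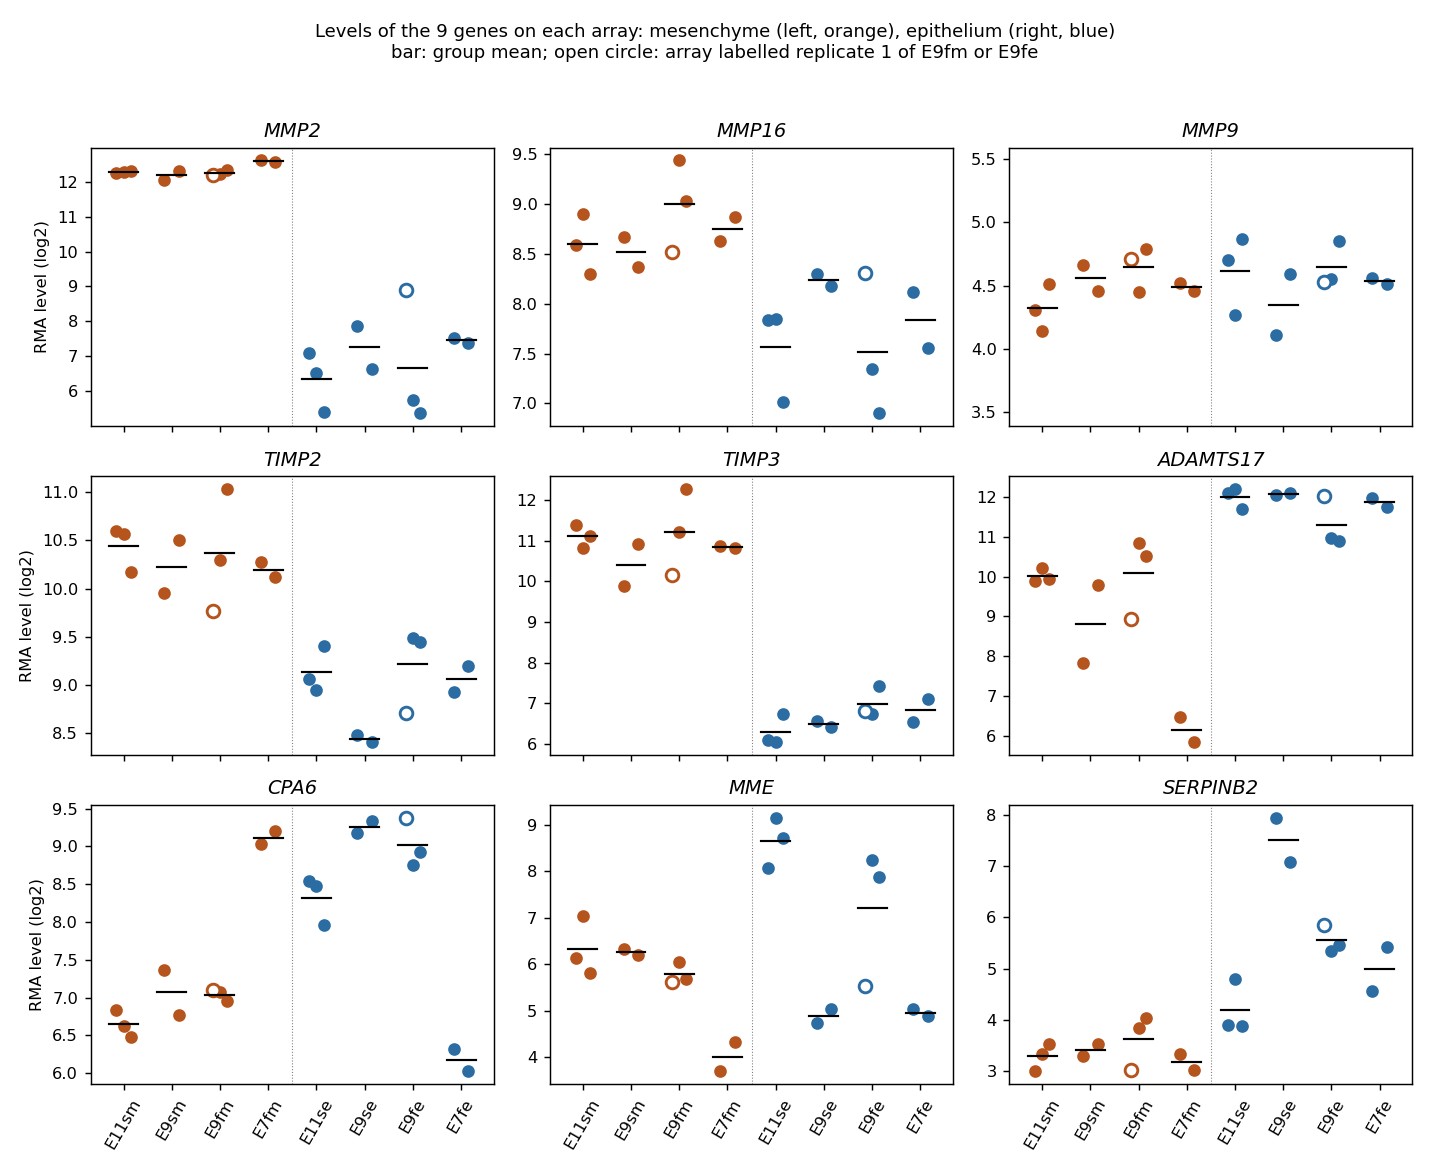
Levels (log2, as deposited) of the 9 genes on each of the 20 arrays, 1 panel per gene, with mesenchyme groups left and epithelium groups right. Points are arrays, bars are group means and open circles mark the arrays labelled replicate 1 of E9fm and E9fe. MMP2 and TIMP3 lie higher on every mesenchyme array than on any epithelium array, SERPINB2 is highest in E9se at 7.94 and 7.07, and CPA6 is lowest in E7fe at 6.32 and 6.03.

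Of the 36 differences between compartments 25 passed, against 4 of 36 between scale and feather skin of like stage and 5 of 36 between stages. Of the 4 and the 5, 2 each were known when the genes were chosen. Over all probe sets 12.4% to 18.8% passed between compartments, 0.0052% to 0.817% between scale and feather skin and 0 to 0.676% between stages. The compartments thus gave more calls on the whole array too, not only among these genes. In E11 scale skin, 4 of the 9 passed as higher in mesenchyme and 3 as lower, beside a background of 18.8% of all probe sets that passed in that comparison (9.41% higher and 9.40% lower). In E9 scale skin the counts were 3 higher and 3 lower, with 13.8% of all probe sets passing (6.75% higher and 7.05% lower). In E9 feather skin 4 were higher and 2 lower, with 17.0% passing (8.42% and 8.55%), and in E7 feather skin 4 were higher and 2 lower, with 12.4% passing (6.28% and 6.07%). The median difference over the 9 genes was -0.29, 0.28, 0.01 and 0.91 in these 4 skins, whereas the medians over all probe sets lay between -0.0617 and 0.00945. MMP2, TIMP2 and TIMP3 passed as higher in mesenchyme in all 4 skins.

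**Figure D2:**
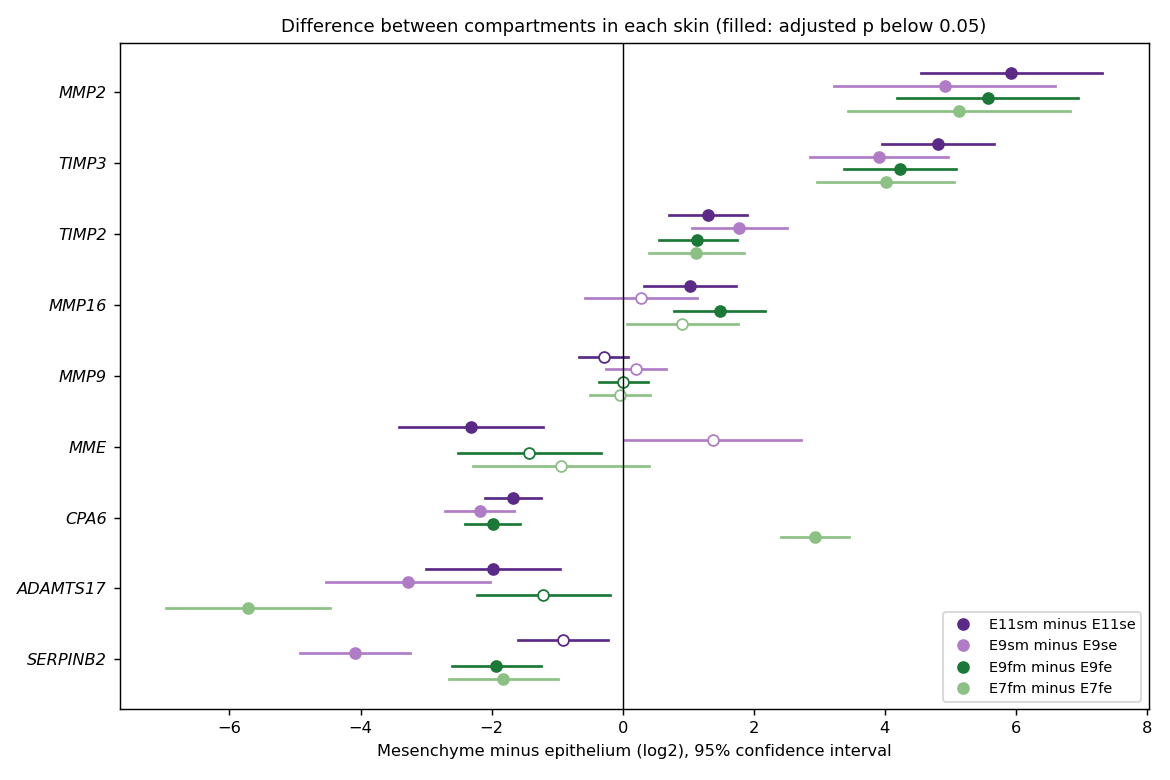
Mesenchyme minus epithelium differences (log2, with 95% confidence intervals) for the 9 genes in the 4 skins. Filled points passed and open points did not. MMP2 lies between 4.91 and 5.93 and TIMP3 between 3.91 and 4.81, TIMP2 between 1.12 and 1.78, and CPA6 lies at 2.93 in E7 feather skin but between -2.18 and -1.68 in the other skins.

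MMP2, gelatinase A, cleaves type IV collagen and denatured collagens. Its level in mesenchyme was 12.24, 12.28 and 12.31 in E11sm, 12.04 and 12.31 in E9sm, 12.18, 12.22 and 12.32 in E9fm, and 12.61 and 12.57 in E7fm. In epithelium it was 7.10, 6.52 and 5.41 in E11se, 7.87 and 6.65 in E9se, 8.90, 5.74 and 5.37 in E9fe, and 7.54 and 7.38 in E7fe. Every mesenchyme array therefore lay above every epithelium array, and the mesenchyme arrays spanned a far narrower range than the epithelium arrays. The difference was 5.93 (SE 0.65, adjusted p = 4.05e-06) in E11 scale, 4.91 (SE 0.80, adjusted p = 0.000365) in E9 scale, 5.57 (SE 0.65, adjusted p = 1.13e-05) in E9 feather and 5.13 (SE 0.80, adjusted p = 0.000242) in E7 feather skin. These are 61.1-fold, 30.1-fold, 47.5-fold and 35.1-fold higher levels in mesenchyme. Leaving out the arrays labelled E9fe 1 and E9fm 1 raised the difference in E9 feather skin to 6.72 (SE 0.42).

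Among the epithelium arrays the highest MMP2 level, 8.90, fell on E9fe 1, which also held the highest mesenchymal marker mean, 9.94. The lowest levels, 5.37 on E9fe 3 and 5.41 on E11se 3, lay beside marker means of 8.20 and 8.56. The part of these markers in the epithelial level of MMP2 was not tested. Without the 2 arrays labelled E9fe 1 and E9fm 1, the epithelial level fell with age in feather skin, by 1.90 in E9fe against E7fe (adjusted p = 0.0276), while with them the difference was -0.79 (SE 0.73, adjusted p = 1). E9se lay 1.71 above E9fe without those arrays (adjusted p = 0.0418) and 0.59 above it with them (SE 0.73, adjusted p = 0.993). Within mesenchyme, E7fm stood above E11sm, the next group, with no overlap, but the differences to E9sm and E9fm were only -0.42 (SE 0.80) and -0.35 (SE 0.73) and did not pass.

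**Figure D3:**
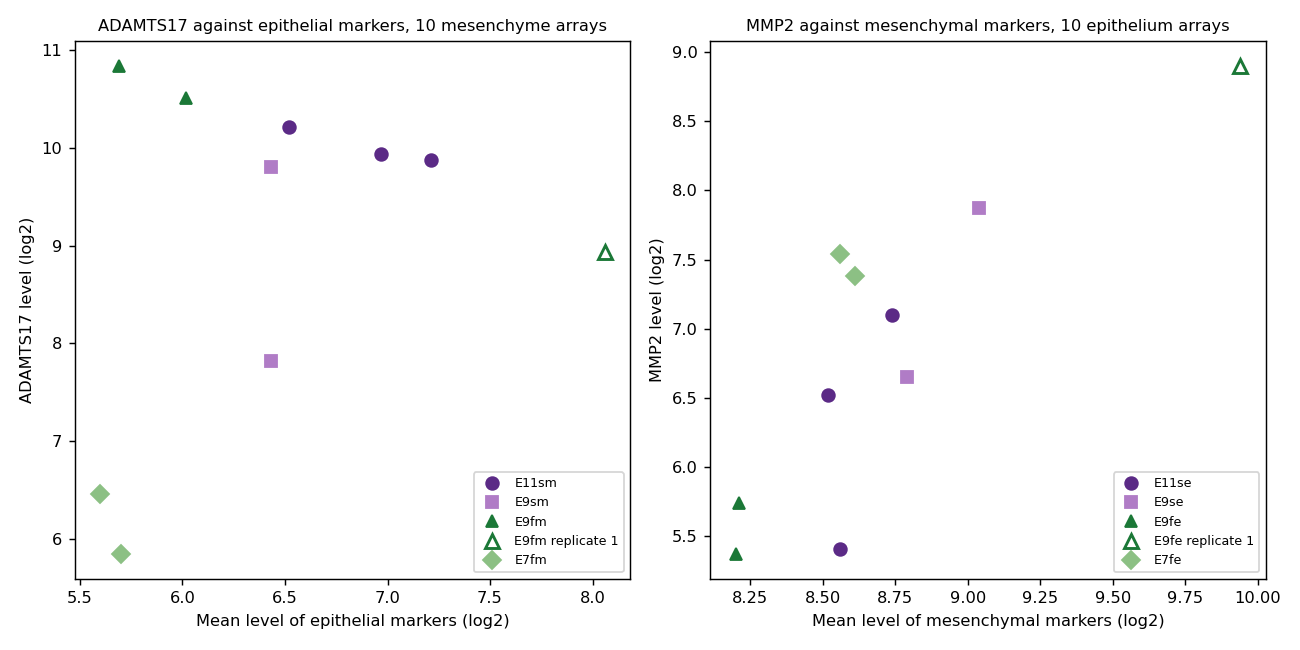
ADAMTS17 level against the mean of 11 epithelial markers on the 10 mesenchyme arrays (left), and MMP2 level against the mean of 18 mesenchymal markers on the 10 epithelium arrays (right), all in log2 units. Each point is an array and open symbols mark replicate 1 of E9fm and E9fe. E9fe 1 holds both the highest marker mean, 9.94, and the highest MMP2 level, 8.90, among epithelium arrays, while E9fm 1 holds the highest marker mean, 8.06, beside an ADAMTS17 level of 8.93.

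MMP16 is a membrane-anchored metalloproteinase that can activate the MMP2 precursor at the cell surface. It was measured at 8.59, 8.90 and 8.30 in E11sm, 8.67 and 8.37 in E9sm, 8.52, 9.44 and 9.03 in E9fm, and 8.63 and 8.87 in E7fm. The epithelial levels were 7.84, 7.85 and 7.01 in E11se, 8.30 and 8.18 in E9se, 8.31, 7.35 and 6.90 in E9fe, and 8.12 and 7.56 in E7fe. Mesenchyme lay above epithelium without overlap in each of the 4 skins, by much less than for MMP2. The difference passed in E9 feather skin, at 1.48 (SE 0.33, adjusted p = 0.00434), and in E11 scale skin, at 1.03 (SE 0.33, adjusted p = 0.0367). It was 0.91 (SE 0.40, adjusted p = 0.202) in E7 feather skin and 0.28 (SE 0.40, adjusted p = 0.809) in E9 scale skin. The difference in E9 feather skin was 2.11 (SE 0.30) without the arrays labelled E9fe 1 and E9fm 1. In E11 scale skin it no longer passed without any 1 of E11se 3, E11sm 1 and E11sm 2, with an adjusted p of up to 0.178. Its other 2 probe sets averaged 6.75 and 3.53 in E9sm and 7.09 and 3.87 in E9se, their highest group, so both run the other way in E9 scale skin. Neither passed in E9 feather skin (0.69 and 0.36, adjusted p = 0.202 and 0.256) or in E11 scale skin (0.56 and 0.38, adjusted p = 0.319 and 0.226). MMP16 passed in no comparison of regions or stages.

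MMP9, gelatinase B, is a product of neutrophils and macrophages in mammals. It lay between 4.11 and 4.87 on the 20 arrays, below the array median on every one of them. Its group means ran from 4.32 in E11sm to 4.65 in E9fm, all neighbours in that order overlapped, and it passed in none of the comparisons. Its largest compartment difference was -0.29 (SE 0.18, adjusted p = 0.325) in E11 scale skin. The mean of 17 macrophage and granulocyte markers lay between 6.36 and 6.75 in mesenchyme and between 4.77 and 5.22 in epithelium, and MMP9 showed no such split.

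TIMP3 is an inhibitor that binds to the matrix and blocks ADAM and ADAMTS proteases as well as metalloproteinases. Its mesenchymal levels were 11.38, 10.83 and 11.11 in E11sm, 9.88 and 10.93 in E9sm, 10.16, 11.22 and 12.27 in E9fm, and 10.86 and 10.82 in E7fm. In epithelium it was at 6.11, 6.05 and 6.73 in E11se, 6.57 and 6.41 in E9se, 6.82, 6.74 and 7.42 in E9fe, and 6.54 and 7.12 in E7fe. As for MMP2, no epithelium array reached a mesenchyme array. The differences were 4.81 (SE 0.40, adjusted p = 2.07e-07) in E11 scale, 3.91 (SE 0.50, adjusted p = 3.23e-05) in E9 scale, 4.23 (SE 0.40, adjusted p = 1.32e-06) in E9 feather and 4.01 (SE 0.50, adjusted p = 2.51e-05) in E7 feather skin. For E9 feather skin it was 4.66 (SE 0.39) without the arrays labelled E9fe 1 and E9fm 1. TIMP3 on E9fe 1 was 6.82, between the other E9fe arrays, although the mesenchymal markers were high on it. The 2 lowest mesenchymal levels, 9.88 on E9sm 1 and 10.16 on E9fm 1, fell on the arrays with the lowest means of 14 endothelial markers, 6.78 and 7.16, where the other mesenchyme arrays held 8.04 to 8.84. The part of vessel cells in these levels was not tested.

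TIMP2 both blocks metalloproteinases and, bound to a membrane-anchored one, helps to activate the MMP2 precursor. It was at 10.60, 10.56 and 10.17 in E11sm, 9.95 and 10.50 in E9sm, 9.77, 10.29 and 11.03 in E9fm, and 10.27 and 10.12 in E7fm. The epithelial levels were 9.06, 8.95 and 9.41 in E11se, 8.48 and 8.41 in E9se, 8.71, 9.49 and 9.45 in E9fe, and 8.93 and 9.20 in E7fe. All mesenchyme arrays again lay above all epithelium arrays, with E9se lowest of the 8 groups and separate from the next, E7fe. The difference was 1.30 (SE 0.28, adjusted p = 0.00268) in E11 scale, 1.78 (SE 0.34, adjusted p = 0.00159) in E9 scale, 1.14 (SE 0.28, adjusted p = 0.00837) in E9 feather and 1.12 (SE 0.34, adjusted p = 0.0404) in E7 feather skin. The last was the least stable, since it passed in 11 of the 20 fits that left out 1 array, with an adjusted p of up to 0.23. In those fits it fell short without any 1 of the 4 E7 arrays, of the 2 E9se arrays or of E11se 1, E11sm 1 and E11sm 2. In E9 feather skin it fell short without E9fm 3 (adjusted p = 0.0517). Between the age-matched epithelia, E9se was lower than E9fe by -0.77 (SE 0.31, adjusted p = 0.529), and by -1.03 (adjusted p = 0.0424) without the 2 arrays labelled replicate 1. The other TIMP2 probe set lay at 3.05 to 3.39 in all groups and carried no difference between compartments.

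Over the 20 arrays TIMP3 followed both MMP2 (Pearson's r = 0.93) and TIMP2 (r = 0.93), and MMP2 followed MMP16 at r = 0.86. These values run across both compartments, none was computed within 1 of them, and no test was made of them. The other genes of these families were read from lists of related genes. Of all probe sets 9.41%, 6.75%, 8.42% and 6.28% passed as higher in mesenchyme in E11 scale, E9 scale, E9 feather and E7 feather skin. As lower, 9.40%, 7.05%, 8.55% and 6.07% did. Among 10 other matrix metalloproteinases, 2 passed as higher in mesenchyme in E11 scale, 1 in E9 scale, 4 in E9 feather and 3 in E7 feather skin, and 0 as lower in any of them. MMP27, of the stromelysin-like branch of the family, was the largest of these in the 4 skins, at 6.46 (SE 0.36, adjusted p = 3.2e-09) in E11 scale, 5.71 (SE 0.44, adjusted p = 2.08e-07) in E9 scale, 4.52 (SE 0.36, adjusted p = 2.03e-07) in E9 feather and 5.82 (SE 0.44, adjusted p = 1.9e-07) in E7 feather skin. Of the 2 other inhibitors, RECK, a membrane-anchored one named after its values were seen, was higher in mesenchyme by 2.98 to 3.31 in the 4 skins and passed in each, and TIMP4 passed in none.

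ADAMTS17 belongs to the secreted metalloproteases with thrombospondin repeats, and in humans its loss disturbs the fibrillin matrix. Unlike MMP2 and the TIMP genes it was lower in mesenchyme. Its mesenchymal levels were 9.88, 10.21 and 9.94 in E11sm, 7.82 and 9.80 in E9sm, 8.93, 10.84 and 10.51 in E9fm, and 6.46 and 5.84 in E7fm. In epithelium it was at 12.10, 12.20 and 11.70 in E11se, 12.06 and 12.10 in E9se, 12.03, 10.98 and 10.90 in E9fe, and 11.98 and 11.75 in E7fe. The epithelial groups overlapped with their neighbours in the order of levels, while E7fm stood below all other arrays.

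The difference between compartments was largest in E7 feather skin. It was -1.98 (SE 0.48, adjusted p = 0.0068) in E11 scale, -3.27 (SE 0.59, adjusted p = 0.000909) in E9 scale, -1.21 (SE 0.48, adjusted p = 0.105) in E9 feather and -5.71 (SE 0.59, adjusted p = 3.84e-06) in E7 feather skin. Without the arrays labelled E9fm 1 and E9fe 1 the difference in E9 feather skin was -0.27 (SE 0.43, adjusted p = 0.825), while it passed without E9fm 2 alone (-1.59, adjusted p = 0.0453) or without either E9sm array (adjusted p = 0.0492). The lower level of E7fm guided the choice of this gene, so its rise in E9fm is given without a test: 3.94 with all arrays (SE 0.54) and 4.52 (SE 0.43) without those 2. The comparisons that share the E7fm arrays, with E7fe and E9sm, or the E9fm arrays, with E9fe, E9sm and E11sm, rest in part on the same values. E9sm lay 2.66 above E7fm (SE 0.59, adjusted p = 0.0471), a 6.32-fold difference, but this passed in only 4 of the 20 fits that left out 1 array, and was 1.67 (adjusted p = 0.462) without E9sm 2. Without the 2 arrays labelled replicate 1, E9sm lay below E9fm by -1.86 (adjusted p = 0.0296), where the difference with all arrays was -1.28 (SE 0.54, adjusted p = 0.688).

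Epithelial markers were lowest in E7fm, at 5.60 and 5.70, and lay at 6.52 to 7.21 in E11sm, 6.43 on both E9sm arrays and 5.69 to 8.06 in E9fm. ADAMTS17 was at 10.84 on E9fm 2, where these markers were at 5.69, and at 5.84 on E7fm 2, where they were at 5.70. On E9fm 1, with the highest marker mean of any mesenchyme array, ADAMTS17 was lower, at 8.93, than on E9fm 2 and 3, but the region of this array is in doubt. The part of epithelial cells in the mesenchymal ADAMTS17 levels was not tested. The 3 other ADAMTS17 probe sets, with mean levels of 6.39 to 8.55, were lowest in E7fm as well, at 3.51 to 4.54. On them E9sm lay above E7fm by 1.29, 2.19 and 1.97, which passed on 0 of the 3 (adjusted p = 0.541, 0.139 and 0.139). In E9 feather skin mesenchyme was lower by -1.59 (adjusted p = 0.0133), -1.68 (adjusted p = 0.0243) and -1.32 (adjusted p = 0.0504), which passed on 2 of the 3. Among 18 other ADAMTS genes, 4 passed as higher in mesenchyme in each of the 4 skins, and 1, 3, 1 and 2 as lower in E11 scale, E9 scale, E9 feather and E7 feather skin. Of all probe sets 9.41%, 6.75%, 8.42% and 6.28% passed as higher in these skins, and 9.40%, 7.05%, 8.55% and 6.07% as lower.

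CPA6 is a carboxypeptidase that is held in the matrix and trims single residues from the end of peptides. With all arrays it passed as higher in mesenchyme in 1 skin and as lower in 3. In mesenchyme its levels were 6.84, 6.63 and 6.48 in E11sm, 7.37 and 6.77 in E9sm, 7.10, 7.07 and 6.95 in E9fm, but 9.03 and 9.20 in E7fm. In epithelium they were 8.54, 8.47 and 7.96 in E11se, 9.18 and 9.34 in E9se, 9.38, 8.76 and 8.92 in E9fe, but 6.32 and 6.03 in E7fe. E7 feather skin thus held the highest mesenchymal and the lowest epithelial arrays. Mesenchyme was higher than epithelium by 2.93 in E7 feather skin (SE 0.25, adjusted p = 4.61e-07), and lower by -1.68 (SE 0.20, adjusted p = 1.06e-05), -2.18 (SE 0.25, adjusted p = 9.59e-06) and -1.98 (SE 0.20, adjusted p = 2.38e-06) in E11 scale, E9 scale and E9 feather skin. None of these 4 calls was lost in any fit that left out an array. Those in E7 feather and E9 scale skin share arrays that guided the choice of the gene, so these fits are no independent support for them. The E9 feather difference was -1.83 (SE 0.23) without the arrays labelled E9fe 1 and E9fm 1.

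The low level in E7fe against E9se guided the choice of CPA6, so that difference, 3.08 (SE 0.25) or 8.45-fold, is given without a test. The comparisons that share the E7fe or the E9se arrays, also those between compartments, rest in part on the same values. E9fe lay above E7fe by 2.85 (SE 0.22, adjusted p = 8.25e-06), and by 2.66 (SE 0.23) without the 2 arrays labelled replicate 1. In mesenchyme the direction was the opposite, with E9sm below E7fm by -2.04 (SE 0.25, adjusted p = 0.000625) and E9fm below E7fm by -2.07 (SE 0.22, adjusted p = 0.00027). In the age-matched skins CPA6 differed by 0.23 (95% interval -0.24 to 0.71) between E9se and E9fe and by 0.03 (-0.44 to 0.51) between E9sm and E9fm. These were 0.41 (-0.08 to 0.91) and 0.06 (-0.43 to 0.56) without the 2 arrays. Levels in E11se were below those of both E9 epithelia without overlap, by -0.93 from E9se (SE 0.22, adjusted p = 0.0799) and by -0.70 from E9fe (SE 0.20, adjusted p = 0.269). The difference to E9se stayed -0.93 (SE 0.21, adjusted p = 0.0382) without the 2 arrays labelled replicate 1, which are in neither of these groups. The difference to E9fe was -0.52 (SE 0.21) without those 2 arrays. The E7fm arrays held the epithelial markers at 5.60 and 5.70 and the E7fe arrays the mesenchymal markers at 8.56 and 8.61. LUM, a matrix proteoglycan of mesenchyme and 1 of those markers, was at 9.54 and 9.43 in E7fe, against 5.78 to 5.87 in E11se and 6.60 and 6.75 on E9fe 2 and 3. It was high as well in E9se, at 9.15 and 8.18, and on E9fe 1, at 10.59. TWIST2, another of those markers, ran the other way, at 3.51 and 3.57 in E7fe against 7.36 and 5.88 in E9se. Erythroid markers were at 10.14 and 9.40 in E7fm, and at 7.37, 9.14 and 9.54 in E9fm, where CPA6 lay between 6.95 and 7.10 on all 3 arrays. The part of either set of cells in the CPA6 levels was not tested. The array holds a single probe set for CPA6.

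MME, neprilysin, is a membrane peptidase that destroys small peptide signals at the cell surface. In mesenchyme its levels were 6.14, 7.04 and 5.81 in E11sm, 6.33 and 6.21 in E9sm, 5.63, 6.05 and 5.69 in E9fm, and 3.71 and 4.32 in E7fm. In epithelium they were 8.07, 9.15 and 8.71 in E11se, 4.73 and 5.05 in E9se, 5.53, 8.24 and 7.88 in E9fe, and 5.03 and 4.89 in E7fe. Both differentiated epithelia therefore held the high arrays, with E9fe 1 as an exception that lay nearer to E9se.

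The difference between E11se and E9se, 3.75 (SE 0.58), a 13.5-fold higher level at day 11, was known when the gene was chosen and has no test here. The MME comparisons that share the E11se or the E9se arrays, between compartments and between regions, rest in part on the same values. In feather epithelium E9fe lay 2.26 above E7fe (SE 0.58, adjusted p = 0.114), and 3.10 (SE 0.38, adjusted p = 0.000288) without the arrays labelled E9fe 1 and E9fm 1. The age-matched difference of E9se to E9fe turned on the same array, at -2.33 (SE 0.58, adjusted p = 0.169) with it and -3.17 (SE 0.38, adjusted p = 0.000184) without the 2 arrays. In mesenchyme E9sm lay 2.25 above E7fm (SE 0.63, adjusted p = 0.158) and E9fm 1.77 above E7fm (SE 0.58, adjusted p = 0.276). Without the 2 arrays these were 2.25 (SE 0.38, adjusted p = 0.00377) and 1.85 (SE 0.38, adjusted p = 0.0162). The first holds neither of the 2 arrays, so only its SE and adjusted p changed. E7fm was the lowest of the 8 groups.

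Mesenchyme was lower than epithelium in E11 scale skin, by -2.31 (SE 0.52, adjusted p = 0.00373). In E9 feather skin the difference was -1.43 (SE 0.52, adjusted p = 0.0731), it passed with the replicate number as a block (adjusted p = 0.0374), and it was -2.19 (SE 0.38, adjusted p = 0.000648) without the 2 arrays. In E9 scale skin it ran the other way, at 1.38 (SE 0.63, adjusted p = 0.202). Without the 2 arrays, which are in neither of these groups, it was still 1.38 and passed with a smaller SE (0.38, adjusted p = 0.0198). Mesenchymal markers on the E9fe arrays were at 9.94, 8.21 and 8.20, with the low MME level on the first. The melanocyte and nerve glia markers, which were at 6.50 on E9fe 1, lay at 9.16 and 8.74 on E9fe 2 and 3 but also at 9.03 and 9.16 in E7fe, where MME was low. The part of these cells in the MME level was not tested. Its other 2 probe sets, with mean levels of 4.60 and 4.91, were also highest in E11se, at 5.79 and 6.51. On them E11se lay above E9se by 1.61 and 2.30, less than on the brightest one. With all arrays, E9sm lay above E7fm by 0.57 and 0.80 on them, and E9fm above E7fm by 0.31 and 0.62. In E9 scale skin mesenchyme was above epithelium by 0.38 and 0.52, and E9fe lay above E7fe by 1.04 and 1.14. None of these passed, while the lower mesenchymal level in E11 scale skin passed on both, at -1.55 and -1.68. They were not read without the arrays labelled E9fe 1 and E9fm 1. Of 19 other membrane and secreted peptidases, 7 passed as higher in mesenchyme and 2 as lower in E11 scale skin, 4 and 1 did in E9 scale skin, 8 and 3 in E9 feather skin and 5 and 3 in E7 feather skin. Over all probe sets 18.8%, 13.8%, 17.0% and 12.4% passed in either direction in these skins.

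SERPINB2, plasminogen activator inhibitor 2, blocks urokinase. In mesenchyme it was at 3.01, 3.33 and 3.53 in E11sm, 3.30 and 3.53 in E9sm, 3.03, 3.84 and 4.03 in E9fm, and 3.33 and 3.03 in E7fm. In epithelium it was at 3.90, 4.80 and 3.89 in E11se, 7.94 and 7.07 in E9se, 5.86, 5.34 and 5.47 in E9fe, and 4.57 and 5.43 in E7fe. The E9se arrays lay above all others, and the level was below the array median on 17 of the 20 arrays. Their difference to E7fe, 2.51 (SE 0.39), guided the choice of the gene and is given without a test. The comparisons that share the E9se or the E7fe arrays rest in part on the same values. The level fell by 3.31 in E11se against E9se (SE 0.36, adjusted p = 0.000498), a 9.90-fold lower level. It passed in all 20 fits that left out 1 array. Each of these fits holds an E9se array, whose high level guided the choice, so neither they nor the p-value are independent support. Against age-matched feather epithelium E9se lay 1.95 higher (SE 0.36, adjusted p = 0.0538), and 2.10 higher (SE 0.35, adjusted p = 0.0028) without the 2 arrays labelled replicate 1. On 2 other SERPINB2 probe sets, read on the same E9se arrays, it passed with all arrays, at 3.19 (SE 0.35, adjusted p = 0.00418) and 2.78 (SE 0.35, adjusted p = 0.00625). E11se lay below E9fe without overlap, by -1.36 (SE 0.32, adjusted p = 0.112).

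Mesenchyme was lower than epithelium for SERPINB2 by -4.09 (SE 0.39, adjusted p = 1.8e-06) in E9 scale, -1.93 (SE 0.32, adjusted p = 0.000395) in E9 feather and -1.82 (SE 0.39, adjusted p = 0.00434) in E7 feather skin. The last no longer passed without E7fe 2 (adjusted p = 0.0845) or E7fm 2 (adjusted p = 0.0526). The difference in E9 feather skin was -1.47 (SE 0.35) without the 2 arrays labelled replicate 1. In E11 scale skin the difference was -0.91 (SE 0.32, adjusted p = 0.0615). Without the 2 arrays labelled replicate 1, which are in neither of these groups, it was still -0.91 (SE 0.29, adjusted p = 0.0351). Of the 3 other probe sets of the gene, 2 had their highest group mean in E9se as well, at 7.95 and 8.21, against at most 5.43 in any other group, and the third lay between 3.41 and 3.88 in all groups. Melanocyte and nerve glia markers were lower in E9se, at 7.02 and 7.36, than in E7fe, at 9.03 and 9.16, and their part in the scale minus feather differences was not tested.

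Other serpins of the B clade lie beside SERPINB2 in the RefSeq gene order of chicken (assembly GRCg7b), and 8 of 10 neighbours looked up after the values were seen had a probe set. OVAL, the ovalbumin gene next to it, was at 9.62 in E9se and 9.59 in E7fe, so it did not share the E9se minus E7fe difference. Like SERPINB2 it was lower than in E9se in E11se, at 7.61 (adjusted p = 0.113), and in E9sm, at 4.54 (adjusted p = 1.02e-05). SERPINB6 was also lower than in E9se, by -0.98 in E11se (adjusted p = 0.0565) and by -1.44 in E9sm (adjusted p = 0.000463). OVALX and OVALY were higher in E11se and E9sm than in E9se, SERPINB1 and SERPINB10B lay close to it, and none of these passed. SERPINB12 was higher in E9se than in E7fe by 1.0 (SE 0.20, adjusted p = 0.0265), with means of 4.52 and 3.52, both below the array medians. SERPINB5, maspin, differed by 1.51 (SE 0.43, adjusted p = 0.161) between them, and was lower in mesenchyme by -4.52 to -5.90 in the skins of days 11 and 9 and by -4.35 at day 7. Whether these related genes share signal on the SERPINB2 probe sets was not tested.

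PLAU, urokinase, is the target of SERPINB2 and was named by its size of change among the related genes. In E9se it was at 7.56 and 7.48, against 8.64 and 8.70 in E7fe. In mesenchyme it was at 7.82 and 7.84 in E9sm, against 5.88 and 5.80 in E7fm. The mesenchymal difference was 1.99 (SE 0.38, adjusted p = 0.0208). In feather epithelium PLAU fell by 1.87 in E9fe against E7fe (SE 0.35, adjusted p = 0.0167).

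**Figure D4:**
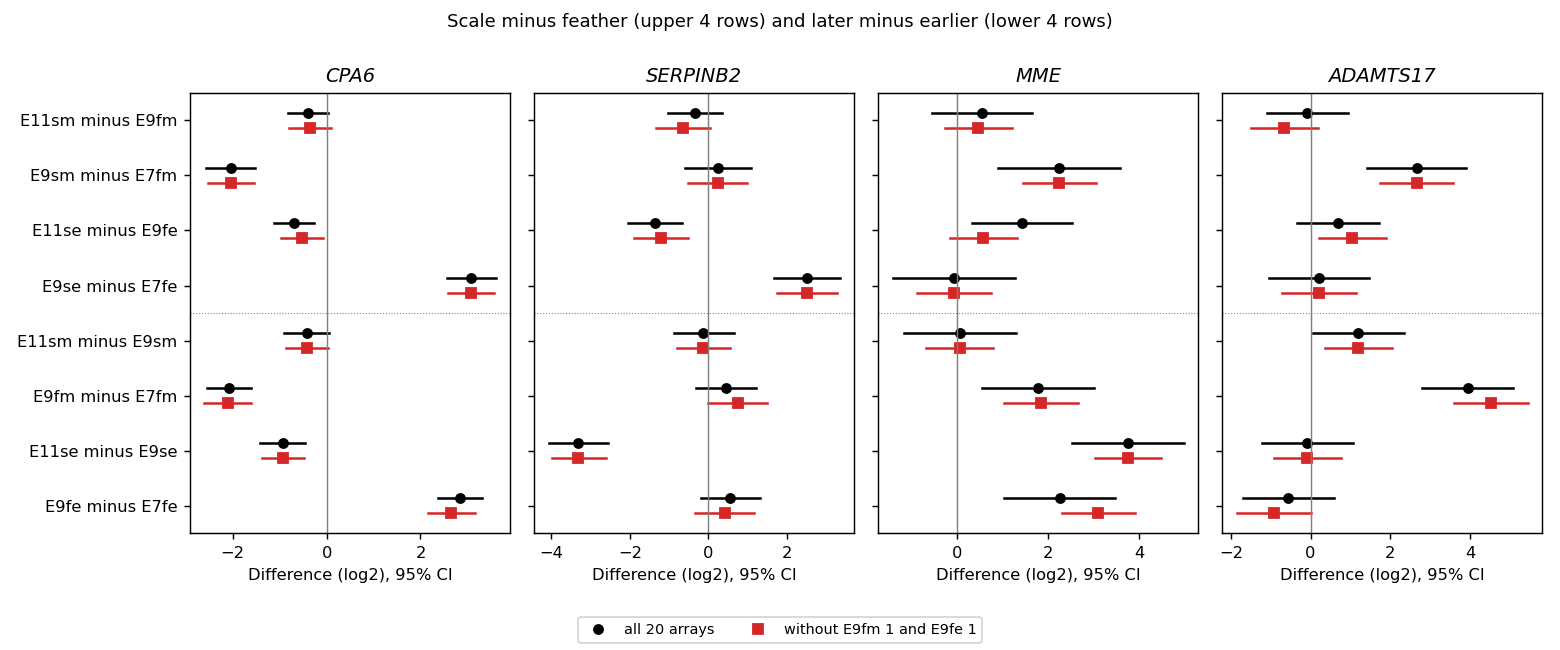
Scale minus feather (upper rows) and later minus earlier (lower rows) differences in log2 with 95% confidence intervals for CPA6, SERPINB2, MME and ADAMTS17. Black circles use all 20 arrays and red squares leave out the arrays labelled E9fm 1 and E9fe 1. CPA6 is higher in E9se than E7fe by 3.08 and lower in E9sm than E7fm by -2.04, and MME in E9fe minus E7fe is 2.26 with all arrays and 3.10 without the 2.

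Counted over the 9 genes, the comparisons of regions and stages gave few calls. Between E9se and E7fe, 2 passed as higher, both chosen with that difference known, and 0.817% of all probe sets passed (0.354% as higher). Between E9sm and E7fm, 1 passed as higher and 1 as lower, with 0.788% passing (0.369% and 0.419%). At the later stage 0 of 9 passed in either compartment, where 0.312% of all probe sets passed between E11se and E9fe and 0.0052% between E11sm and E9fm (2 probe sets, and 1 with the replicate number as a block). In limma 3 of the 9 had an unadjusted p below 0.05 in the epithelial comparison and 0 in the mesenchymal one, as did 2213 and 1810 of all 38439 probe sets. Leaving out the arrays labelled E9fe 1 and E9fm 1 raised the passing probe sets to 1019 and 889 in these comparisons, still with 0 of the 9 genes. In feather skin from day 7 to day 9, 1 passed as higher in epithelium (0.637% of all probe sets, 0.224% as higher) and 1 as higher and 1 as lower in mesenchyme (0.520%, made up of 0.216% and 0.304%), the higher one being ADAMTS17, chosen with that difference known. In scale skin from day 9 to day 11, 1 passed as higher and 1 as lower in epithelium (0.676%, made up of 0.281% and 0.395%), the higher one being MME, chosen with that difference known. There 0 passed in mesenchyme, where 0 of 38439 probe sets passed and 1041 probe sets, 1 of the 9 genes among them, had an unadjusted p below 0.05. Of the age-matched comparisons neither held a member that passed by its brightest probe set, with 0.0754% of all probe sets passing in epithelium and 0 in mesenchyme. At an unadjusted p below 0.05 there were 3 members in epithelium and 1 in mesenchyme, where 2841 and 2508 of all probe sets met it. Without the 2 arrays labelled replicate 1, 4 passed in age-matched epithelium and 1 in mesenchyme. In that fit 1228 and 1102 of all probe sets passed in these comparisons, against 29 and 0 with all arrays.

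The differences of differences concerned CPA6 and SERPINB2. In epithelium the scale minus feather difference of CPA6 was -0.70 at the later and 3.08 at the early stage, and that of SERPINB2 was -1.36 and 2.51. At the early stage the difference of CPA6 was -2.04 in mesenchyme and 3.08 in epithelium. Of the 9 genes, 2 passed in the dependence on stage in epithelium, where 0.127% of all probe sets passed (0.0572% as lower), and 1 in the dependence on compartment at the early stage, where 0.492% did (0.224% as lower). The others, 0 of 9 each, had 0.0442% (stage, mesenchyme) and 0.0702% (compartment, late) of all probe sets passing. Since each of these rests on an early difference known when the genes were chosen, they are descriptions.

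Of the 98 related protease and inhibitor genes, 26 passed as higher in mesenchyme, 12 as lower and 60 did not pass in E11 scale skin, where 18.8% of all probe sets passed. The counts were 19, 15 and 64 in E9 scale skin (13.8% of all), 27, 13 and 58 in E9 feather skin (17.0%) and 21, 14 and 63 in E7 feather skin (12.4%). SERPINF1, a secreted serpin of the matrix that blocks vessel growth, was higher in mesenchyme by 4.67 in E9 feather and 5.58 in E7 feather skin. HTRA3, a secreted serine protease, was 6.16 higher in E9 scale skin, and ADAM22, an ADAM without protease activity, 5.61 higher in E11 scale and 4.57 in E9 feather skin. On the epithelial side, CPM, a membrane carboxypeptidase, was lower in mesenchyme by -4.24 in E9 feather and -3.15 in E9 scale skin, PRSS35 by -4.60 in E7 feather skin and the lysosomal CTSZ by -2.60 in E11 scale skin.

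By region and stage few of the 98 passed. The scale minus feather comparisons held ASTL, an astacin protease (1.22 higher in E9se than E7fe), SERPINB12 and PLAU as given above, ADAM12 (-1.92 in E9sm against E7fm) and CTSK, a collagen-cleaving cathepsin (-1.44 in E11se against E9fe). ASTL had low means, 4.91 in E9se and 3.69 in E7fe, below the array medians like those of SERPINB12. Later in feather skin, PCSK6, a convertase that activates growth factors, was 2.00 higher and the peptidase DPP4 lower by -2.03 in E9fm against E7fm. No related gene passed between E11 and E9 scale skin, where 23 of the 98 in epithelium and 5 in mesenchyme had an unadjusted p below 0.05. Of all 38439 probe sets 3934 and 1041 did in these comparisons.

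The genes whose pattern over the 20 arrays was most like that of each member, by Pearson's r of log2 levels, were COL12A1 and DCUN1D4 for MMP2 (both 0.984), CDO1 and PMP22 for TIMP3 (both 0.988), and ID4 (0.956) and PTGES (0.954) for TIMP2. PDE4D (0.928) and DCX (0.926) lay nearest to MMP16, and SEMA3A (0.948) and SEMA3D (0.944) to ADAMTS17. SERPINB2 was most like PRRG4 (0.918) and LRGUK (0.911). The values were lower for MME, with LY6CLEL (0.862) and TMPRSS11F (0.838), for CPA6, with MAP1LC3C (0.852) and KCTD14 (0.829), and for MMP9, with APOV1 (0.860) and IL12RB2 (0.840).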

How the data were processed

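RNA of 20 samples was hybridised to Affymetrix chicken genome arrays. The deposited values are log2 levels from RMA, run by the authors with affy (background correction, quantile normalization, probe summary). Raw files were not used here, so these steps stand as they were. Of the 38535 probe sets, 96 array controls were left out. Symbols came from the array annotation (27168 probe sets with 1 symbol, 177 with several, 11094 with none).

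A mean per group was fitted in limma 3.58.1 (R 4.3.3) with eBayes and Benjamini-Hochberg adjustment within each of 18 comparisons. Tables were made with pandas 2.3.3, scipy 1.17.1 and numpy 2.4.6 and figures with matplotlib 3.10.9, in Python 3.11.15. On simulated levels of 38439 probe sets, the comparison E11sm minus E11se recovered 91% of changes of 2 and 98% of 3 log2 units with 5.97% of calls false. The simulated levels had independent noise and few changed probe sets, and both groups held 3 arrays. These rates therefore need not hold for the real levels or for groups of 2 arrays.

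The members and lists were chosen with earlier results of these data known. Besides the members, up to 2 related genes each way per comparison with the largest passing difference, and the 2 genes most like each member, are named. The labels number the replicates. Among the 4 groups of 3 arrays, same-numbered arrays deviated together from their group means (r from 0.14 to 0.71, above 0.1 in 18 of 18 pairs), so the numbers were taken to pair these samples from the data, not the design. Some of these pairs join embryos of different age, and the labels do not say what a number shares. The main p-values come from the fit without the pairing, and counts with it are given below. Alternatives were a replicate block, a mean-variance trend, array weights, centred arrays, a filter on dim probe sets, only the groups compared, leaving out each array, and leaving out E9fe 1 and E9fm 1 together.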

Additional observations from a re-analysis of the deposited data

Results flagged for a closer look

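Differences between 2 settings of the same contrast were tested for the 9 genes and the 98 related genes, and 6 passed. Of the 98, 2 passed in the dependence on compartment at the early stage and 1 at the later stage. Of all probe sets 0.492% and 0.0702% passed in these. In the dependence on stage 0.127% of all probe sets passed in epithelium and 0.0442% in mesenchyme, and 0 of the 98. In epithelium the scale minus feather difference of CPA6 was -0.70 at the later and 3.08 at the early stage, which differ by -3.78 (SE 0.32). That of SERPINB2 was -1.36 and 2.51, which differ by -3.87 (SE 0.51). At the early stage the difference of CPA6 was -2.04 in mesenchyme and 3.08 in epithelium, which differ by -5.12 (SE 0.35). These 3 include a difference known when the genes were chosen, so no p is given.

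The early scale minus feather difference of PLAU was 1.99 in mesenchyme and -1.15 in epithelium, which differ by 3.13 (SE 0.53, adjusted p = 0.0122). That of ADAMTS3, which trims procollagens, was 1.19 and -1.02, which differ by 2.21 (SE 0.43, adjusted p = 0.0299). At the later stage that of CTSK was 0.44 in mesenchyme and -1.44 in epithelium, which differ by 1.88 (SE 0.29, adjusted p = 0.0205), with CTSK at 7.83 on E9fe 1 and at 8.29 and 8.10 on the other E9fe arrays. Taken singly, the epithelial part of PLAU, both parts of ADAMTS3 and the mesenchymal part of CTSK did not pass.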

How the results depend on the processing

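No difference of the 9 genes that passed with all arrays changed its sign under any alternative run. Among those that came to pass, MMP2 in E9se minus E9fe did, as it ran from -0.06 to 1.71 with 1 array left out. Of 36 scale minus feather differences 4 passed (2 to 5 with an array left out), of 36 stage differences 5 (4 to 9), of 36 compartment differences 25 (23 to 27), of 18 age-matched differences 0 (0 to 3), of 36 differences of differences 3 (3 to 5), and of 1764 differences of related genes 158 (139 to 207). Without E9fe 1 and E9fm 1 the stage count was 9, the age-matched count 5, the differences of differences 7 and the related genes 255. Calls over all probe sets also rose in most comparisons, as from 29 to 1228 in E9se minus E9fe and from 245 to 855 in E9fe minus E7fe. Using only the groups compared gave 3 stage differences, and CPA6 in E9fm minus E7fm (adjusted p = 0.0669), MMP16 (0.0647) and TIMP2 (0.108) in E9fm minus E9fe and ADAMTS17 in E9sm minus E7fm (0.213) no longer passed. Array weights gave 3 age-matched differences and 5 differences of differences, and the mean-variance trend gave 1 age-matched difference. The causes were not tested. Leaving out dim probe sets removed MMP9 and SERPINB2 and kept 19220 probe sets.

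With the replicate number as a block, 3 scale minus feather, 5 stage, 26 compartment, 0 age-matched and 3 differences of differences passed, and 169 of related genes. The block was fitted to all 20 arrays, also those in groups of 2. Where such a group takes part the samples are not taken as paired. Over all same-numbered pairs r ran from -0.59 to 0.71 (above 0.1 in 31 of 62). Block results with groups of 2 therefore rest on a pairing that is not taken to hold. Under the block ADAMTS17 in E9sm minus E7fm no longer passed (adjusted p = 0.0531) and MME in E9fm minus E9fe did (adjusted p = 0.0374), with no other call among the 9 genes changed. In the dependence on stage in epithelium 49 probe sets passed and 78 did with the block.

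Groups of 2 or 3 arrays limit all differences. The level of SERPINB2 lay below the array median on 17 arrays, that of MMP9 on all 20, that of MME on 8 and that of MMP2 on 2.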
